A study of Mus musculus with 6 samples.

Results

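Gene deserts are long stretches without a protein-coding gene, and the regions described here are the CUT&Tag peaks that lie inside them, more than 50 kb from the span of the nearest protein-coding gene. In CUT&Tag an antibody guides a transposase to a chromatin protein or histone mark, and the DNA released there is sequenced. Which protein or mark the antibody recognised is not stated in the sources, and a peak means only enrichment of that target. The 6 deposited peak lists were merged, and a region was kept when it was under 4000 bp wide and held a peak with an adjusted p under 0.05 in at least 2 libraries. This left 1217 desert regions out of 43759 merged regions, of which 29342 had such a peak in at least 2 libraries. Another 528 regions at this distance were left out because 1 library alone had the peak, and 1 was left out for its width. The regions were selected on the number of libraries with a peak, the peak's adjusted p, the width and the distance, and these are given below as description.

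The cells were group 2 innate lymphoid cells (ILC2s) from the mouse colon, cultured in all 3 groups with the cytokines IL-33, IL-25, IL-7 and IL-2 and sorted before library preparation. They were labelled Control, given FK866, an inhibitor of the NAD-producing enzyme NAMPT, or given FK866 plus succinate, a metabolite of the tricarboxylic acid cycle. Each group had 2 libraries, and the labels give neither dose nor time. Separate cultures or animals are not named for a group's libraries, and p-values then reflect no more than how far these samples spread, which may be technical. The lists held between 40320 and 56361 peaks, of which 25187 to 28269 per library had an adjusted p under 0.05, and the fewest were in a FK866 plus succinate library. Read depth is unknown. Such a peak lay within 2 kb of a gene end for 8 or 9 of 10 ILC2 marker genes per library (Ptgdr2 had none) and for 4 to 6 of 8 T cell markers (Cd8a had none). It did so for 2 of 5 ILC1 and NK markers (Ncr1, Ifng and Klrb1c had none), for 0 or 1 of 5 myeloid and 1 or 2 of 4 stromal markers. Epithelial markers had it for 3 and 5 of 6 in Control, 2 and 4 in FK866, and 2 and 1 in FK866 plus succinate. These marker counts describe the target at gene ends and not expression, and their part in the results below was not tested.

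Deserts often flank genes for transcription factors and signalling regulators, and they can hold distal enhancers that act on a gene far away along the chromosome. They also hold genes for long noncoding RNAs (lncRNAs) and for microRNAs. Genes of this kind that matter in ILC2s and return below are Gata3, the transcription factor that directs the type 2 programme, and Id2, an inhibitor of E proteins on which innate lymphoid cells depend.

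The name desert held for protein-coding genes and less so for others. Of the 1217 regions, 37.8% lay over an annotated noncoding gene or gene segment and 32.2% over a lncRNA, compared with 29.0% and 22.9% of the 5244 intergenic regions that lie between 2 and 50 kb from a coding gene. In addition, 20 desert regions lay within 50 kb of an antigen receptor gene segment, because the annotation does not class these segments as protein-coding. The distance to the nearest coding gene had a median of 95483 bp and reached 1822623 bp. Width ranged from 257 to 3996 bp with a median of 1072 bp. The region just inside the distance limit lay 50115 bp from Smug1 and the region just outside it 49940 bp from Psd2.

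Desert regions that lay over the start of a noncoding gene are shown first, since they are the ones whose sequence the RefSeq tables hold. RefSeq start windows (GRCm38.p6, from 250 bases before to 50 after the start) of 106 noncoding genes overlapped 100 desert regions. The windows of 6 lncRNA genes with a peak in all 6 libraries are printed 5′ to 3′ on the gene's strand, with each CpG in capitals, because they show the range from CpG-rich to CpG-free starts. Dubr lies between Ccdc54 and Cblb (mm10 chr16:50732724-50733023, minus strand), Lncpint, a p53-induced lncRNA, between Klf14 and Mkln1 (chr6:31218425-31218724, minus strand), and Dleu2, the lncRNA that hosts Mir15a and Mir16-1, between Kcnrg and Dleu7 (chr14:61682324-61682623, minus strand). Morrbid, a lncRNA known to restrain the death gene Bcl2l11 in short-lived immune cells, lies beside that gene (chr2:128429302-128429601, minus strand). Gm30957 lies in the desert beside Gata3 (chr2:8946686-8946985, plus strand) and Gm36496 in the desert beside Id2 (chr12:25190795-25191094, minus strand).

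Dubr: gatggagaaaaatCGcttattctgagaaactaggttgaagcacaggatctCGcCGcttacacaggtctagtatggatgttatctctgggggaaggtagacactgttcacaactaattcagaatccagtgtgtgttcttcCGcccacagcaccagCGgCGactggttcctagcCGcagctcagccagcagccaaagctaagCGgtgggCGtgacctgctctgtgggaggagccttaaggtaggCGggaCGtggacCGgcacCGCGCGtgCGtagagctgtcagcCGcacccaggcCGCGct
Dleu2: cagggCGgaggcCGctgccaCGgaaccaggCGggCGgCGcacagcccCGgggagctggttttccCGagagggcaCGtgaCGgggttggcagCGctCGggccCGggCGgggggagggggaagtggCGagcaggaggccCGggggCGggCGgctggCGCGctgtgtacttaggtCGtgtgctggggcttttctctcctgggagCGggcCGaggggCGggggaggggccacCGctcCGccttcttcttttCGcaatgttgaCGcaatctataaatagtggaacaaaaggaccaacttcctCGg
Lncpint: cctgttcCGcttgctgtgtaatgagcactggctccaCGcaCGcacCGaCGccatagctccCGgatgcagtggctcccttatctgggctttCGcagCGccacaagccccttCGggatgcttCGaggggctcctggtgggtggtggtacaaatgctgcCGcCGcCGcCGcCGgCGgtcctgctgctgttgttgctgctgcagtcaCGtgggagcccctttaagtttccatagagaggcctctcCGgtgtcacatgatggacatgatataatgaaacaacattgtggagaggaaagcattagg
Morrbid: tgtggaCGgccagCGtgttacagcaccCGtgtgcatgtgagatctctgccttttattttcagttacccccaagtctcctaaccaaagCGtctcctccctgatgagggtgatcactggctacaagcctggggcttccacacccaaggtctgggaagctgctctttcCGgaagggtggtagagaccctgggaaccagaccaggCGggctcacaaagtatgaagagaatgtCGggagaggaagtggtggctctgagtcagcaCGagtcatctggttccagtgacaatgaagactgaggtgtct
Gm36496: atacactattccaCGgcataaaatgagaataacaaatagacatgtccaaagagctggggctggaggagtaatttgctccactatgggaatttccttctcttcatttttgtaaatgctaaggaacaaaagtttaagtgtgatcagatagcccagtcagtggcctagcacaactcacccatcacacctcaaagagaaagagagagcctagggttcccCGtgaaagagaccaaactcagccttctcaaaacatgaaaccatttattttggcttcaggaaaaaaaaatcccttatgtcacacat
Gm30957: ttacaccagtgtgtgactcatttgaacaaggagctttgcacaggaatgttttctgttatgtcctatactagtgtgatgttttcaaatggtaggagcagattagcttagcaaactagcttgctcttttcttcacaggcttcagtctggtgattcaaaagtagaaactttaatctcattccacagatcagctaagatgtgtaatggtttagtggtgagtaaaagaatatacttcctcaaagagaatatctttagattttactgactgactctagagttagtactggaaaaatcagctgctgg

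The Dleu2 window held 29 CpG in 300 bases, the Dubr window 19 and the Lncpint window 18. The Morrbid window held 8, that of Gm36496 held 2 and that of Gm30957 had 0, so starts with a peak in every library ranged from CpG-rich to CpG-free. Over the 106 genes the median was 7.5 CpG per window, compared with 3.0 in the 2675 noncoding genes more than 50 kb from a coding gene whose window overlapped no deposited peak in any library, and with 13.0 in 17492 protein-coding genes. The ratio of observed to expected CpG passed 0.6 in 25.5% of the windows in desert regions (27 of 106), in 3.25% of those without a peak, and in 48.3% of protein-coding windows. The GC box motif (letters GGGCGG, either strand) occurred in 33.0%, 5.61% and 46.3% of the same 3 sets, and in 35.9% of all 27025 genes' windows. An ETS motif (CCGGAAG, both strands) occurred in 8.49%, 2.02% and 11.9%, and in 9.12% of all windows. Over all 9533 noncoding genes, with or without a peak, the median was 4.0 CpG and the ratio passed 0.6 in 14.7%. In their windows the GC box occurred in 16.8% and the ETS motif in 4.03%. The other motifs searched were AP-1 (TGANTCA), RUNX (letters TGTGGT) and the GATA motif (letters AGATAA), each on both strands and none contained in another. Their shares in the windows of desert regions were 14.2%, 25.5% and 11.3%, beside 11.2%, 20.7% and 17.9% in the windows without a peak and 7.93%, 16.9% and 11.4% in all windows. In the windows of all noncoding genes they were 9.49%, 20.2% and 14.1%. These shares are counts of letters and were not tested.

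The regions of the printed starts were compared by their covered share, measured as the share of the region's bases under peaks with an adjusted p under 0.05. At Dubr (region chr16:50731581-50733214) the covered share was 96.3% and 94.6% in the Control libraries, 94.9% and 96.5% in FK866, and 78.3% and 76.7% in FK866 plus succinate. At Morrbid (region chr2:128426392-128429586) it was 99.4% and 96.7%, 99.1% and 90.0%, and 73.5% and 78.8%. At both, the FK866 plus succinate libraries lay below all 4 others. The fold enrichment over local background ordered the groups otherwise. At Dubr the Control libraries (10.4 and 9.74) lay above the FK866 libraries (9.55 and 8.99), and FK866 plus succinate overlapped both. At Morrbid it lay between 4.33 and 5.27, and the Control libraries (4.33 and 4.58) lay lowest. At Gm30957 the Control libraries lay highest, with 94.6% and 100%, beside 75.6% and 76.8% in FK866 and 87.5% and 70.4% in FK866 plus succinate. At Gm36496 (region chr12:25188389-25191099) the FK866 libraries lay highest, with 96.6% and 94.0%, beside 85.7% and 87.4% in Control and 87.1% and 78.9% in FK866 plus succinate. At Lncpint the values were 97.5% and 99.6% in Control, 96.8% and 94.6% in FK866, and 95.9% and 66.9% in FK866 plus succinate, where 1 library lay far below the rest. At Dleu2 every library lay between 94.9% and 98.9%, and the groups overlapped. Tests of such differences are given with the group comparisons below.

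Desert regions over a noncoding start were set beside the other desert regions. A peak in all 6 libraries was found in 72 of these 100 regions and in 524 of the other 1117 (46.9%), a description, since the number of libraries helped choose the regions. The median fold per library was 5.83 to 7.15 in the first set and 4.46 to 4.75 in the second, a mean difference of 1.85 ± 0.464 (SD, n = 6 libraries), higher in 6 of 6. An exact two-sided paired permutation test gave p = 0.0312 for the fold, the smallest it can give with 6 libraries, and 0.0625 after adjustment over fold and width, which misses 0.05. Fold is tied to the adjusted p that helped choose the regions, so the fold difference is a description too. The median peak was 395 ± 47.1 bp wider, given as a description. In each direction of each comparison, 0 to 3 of the 100 regions were gained or lost between groups, beside 2.47% to 6.49% of all desert regions. Gm26947 was among them, with a peak absent in both FK866 libraries and present in all others.

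MicroRNA hairpins lay in 2 desert regions, and their mature sequences are printed with the seed (bases 2 to 8) in capitals, because the first pair share it. One region (chr6:31062530-31063623) held the hairpins of Mir29a (chr6:31062660-31062747, minus strand) and Mir29b-1 (chr6:31063023-31063093, minus strand), microRNAs known to restrain the interferon gamma programme in lymphocytes. The other (chr13:83737923-83740197), 70843 bp from Mef2c, held Mir9-2 (chr13:83738814-83738885, plus strand), a microRNA best known from neurons.

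mmu-miR-29a-3p: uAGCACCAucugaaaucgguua
mmu-miR-29b-3p: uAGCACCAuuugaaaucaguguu
mmu-miR-9-5p: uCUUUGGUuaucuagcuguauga
mmu-miR-9-3p: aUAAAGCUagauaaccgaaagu

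Both 3p arms of the miR-29 pair carry the seed AGCACCA, while miR-9-5p carries CUUUGGU and miR-9-3p UAAAGCU. The Mir29a and Mir29b-1 region was covered to 87.6% and 75.0% in Control, 54.6% and 71.7% in FK866, and 54.6% and 33.7% in FK866 plus succinate. The Control libraries lay highest and the other groups overlapped. The Mir9-2 region was covered to 92.0% and 86.1%, 88.7% and 74.9%, and 98.2% and 74.5%, with all groups overlapping.

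Desert regions were unevenly spread over the deserts. The genome held 2967 gaps of more than 100 kb between neighbouring coding genes, and 535 of them had at least 1 desert region. These gaps held 1200 of the regions, and the remaining 17 lay beyond the first or last coding gene of a chromosome. In 314 gaps there was 1 region, while 57 gaps with 5 or more held 456. Short deserts were filled more densely than long ones. Counting only sequence over 50 kb from a gene, gaps of 100 to 200 kb had 5.33 regions per Mb, gaps of 200 to 500 kb 2.39, gaps of 500 kb to 1 Mb 0.918, and gaps over 1 Mb 0.405. By chromosome, the density was highest on chromosomes 2 (2.38 per Mb), 10 (2.36) and 16 (2.08) and lowest on X (0.526) and Y (0.0153).

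**Figure D1:**
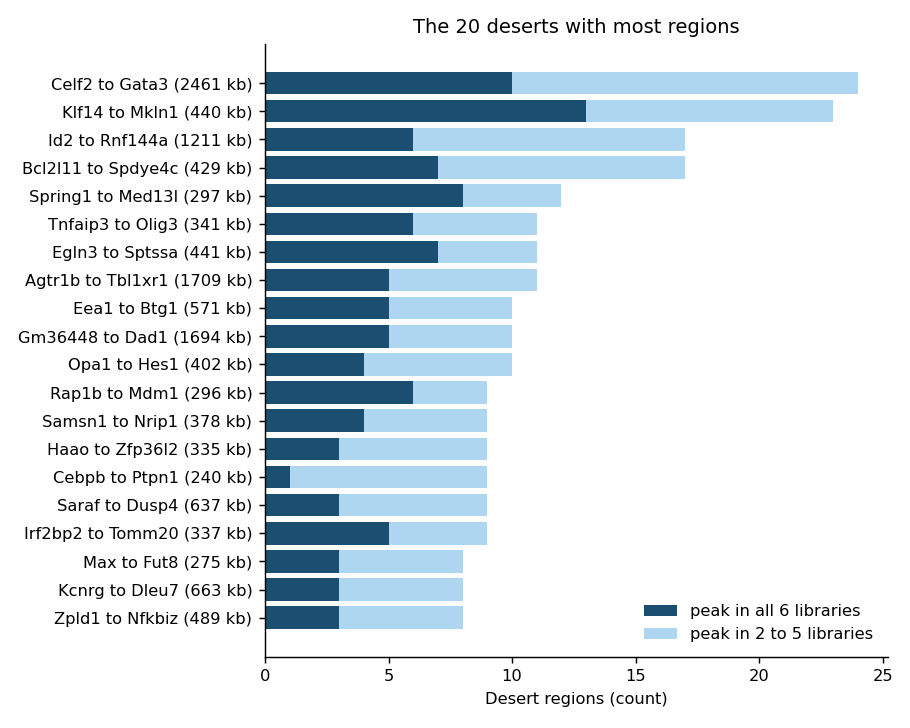
Number of desert regions (x axis, count) in each of the 20 deserts with most of them, named by the coding genes on either side with the desert's length in kb. The dark part of a bar counts regions with a peak in all 6 libraries and the pale part those with a peak in 2 to 5; the desert beside Gata3 has 24 regions and that beside Klf14 has 23.

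The desert with most regions lay between Celf2, an RNA-binding protein gene, and Gata3. Its 24 regions all lay in the 986460 bp nearest to Gata3, and none lay in the 1473609 bp nearest to Celf2. In 10 of them every library had a peak. The highest ranked, at the start of Gm30957 (chr2:8946579-8947769, 909308 bp from Gata3), had a fold of 9.88 and 9.73 in Control, 9.74 and 8.96 in FK866, and 10.4 and 8.70 in FK866 plus succinate, with all groups overlapping. Another at chr2:9367726-9370179, in the lncRNA Gm13219 and 486898 bp from Gata3, was covered to between 88.0% and 99.1% in all libraries. The nearest to Gata3, at chr2:9775178-9776423, lay 80654 bp away, and its covered share ranged from 35.8% to 98.3% with every group spread widely.

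The desert between Klf14 and Mkln1, the gene of the scaffold protein muskelin, was far shorter, at 440 kb, and held 23 regions, 13 of them with a peak in every library. It contains Lncpint, 2210408F21Rik and the hairpins of Mir29a and Mir29b-1, and 15 of its regions lay over one of these 4 noncoding genes. The widest of all desert regions was here, at chr6:31123120-31127115 inside Lncpint, covered to 97.4% and 99.3% in Control, 99.2% and 81.9% in FK866, and 82.8% and 73.5% in FK866 plus succinate. Broad coverage came with a low fold at the Lncpint start. At chr6:31217728-31219148 the fold was 2.72 to 2.92 in all libraries although up to 99.6% of the region was covered.

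The desert between Id2 and Rnf144a, the gene of a ubiquitin ligase, held 17 regions, 6 of them with a peak in every library. Of these, 14 lay within 342388 bp of Id2 and 12 over a lncRNA such as Gm36287. The highest ranked, at chr12:25239230-25241206 and 143137 bp from Id2, had a fold of 7.27 and 8.33 in Control, 9.69 and 8.43 in FK866, and 6.79 and 8.58 in FK866 plus succinate. FK866 lay above Control there, and FK866 plus succinate overlapped both. A peak was present in 15 and 15 of the 17 regions in Control, 12 and 13 in FK866, and 9 and 10 in FK866 plus succinate.

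Bcl2l11 encodes the death protein Bim, and the desert between it and Spdye4c held another 17 regions, 16 of them over Morrbid or a neighbouring lncRNA and 7 with a peak in every library. The one nearest to Bcl2l11 lay 132177 bp away, and the strongest was the Morrbid start. The region at chr2:128499276-128500330, in Gm39928, was covered to 93.0% and 95.5% in Control, 69.1% and 64.5% in FK866, and 59.1% and 62.8% in FK866 plus succinate. Its fold was 7.70 and 8.73, 7.45 and 7.25, and 4.66 and 6.46. The Control libraries were highest by both measures.

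**Figure D2:**
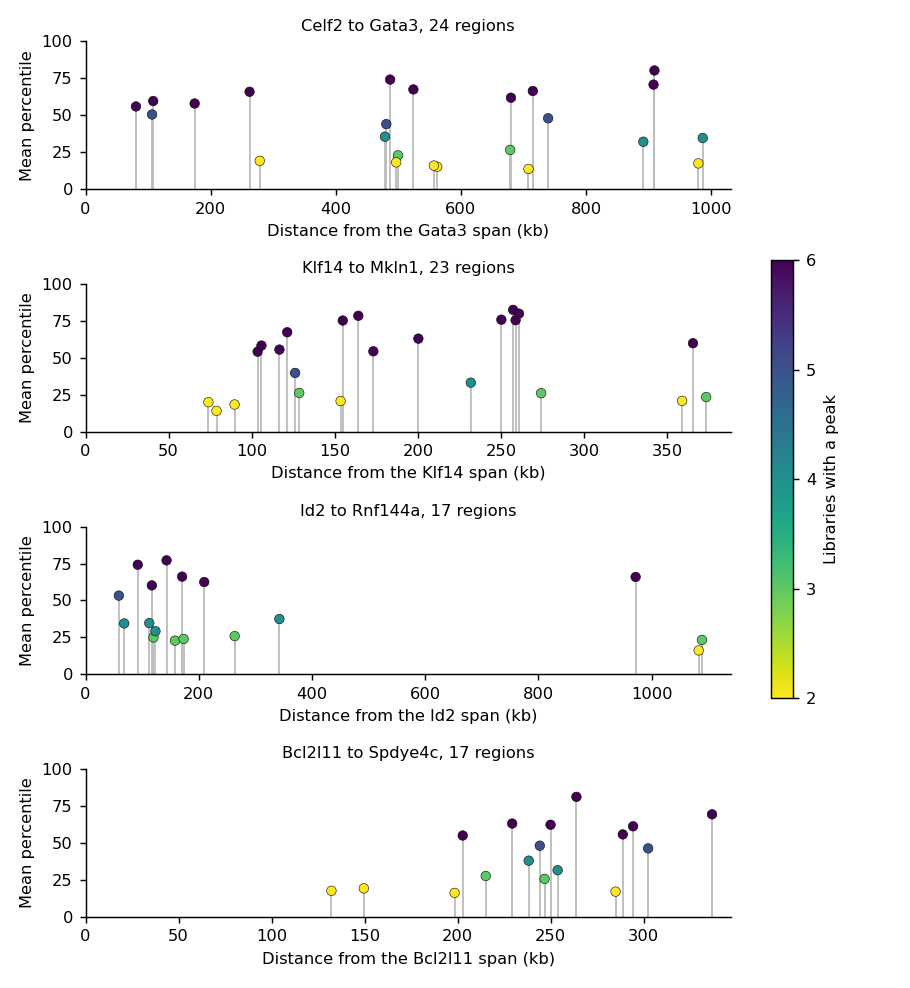
Position and strength of the desert regions in the 4 deserts with most of them. The x axis is the distance in kb from the named coding gene, the y axis is the mean over 6 libraries of the percentile of the region's strongest peak in that library's list (0 where there is none), and the colour gives the number of libraries with a peak. The 24 regions beside Gata3 spread over 986460 bp, while 14 of 17 beside Id2 lie within 342388 bp of it.

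Next came the desert between Spring1 and Med13l, with 12 regions, 8 of them with a peak in every library. The desert between Tnfaip3, the gene of the NF-kB inhibitor A20, and Olig3 held 11 regions, that between the hypoxia sensor gene Egln3 and Sptssa 11, and that between Agtr1b and Tbl1xr1 11. The deserts between Eea1 and Btg1, between Gm36448 and Dad1 and between Opa1 and the Notch target gene Hes1 held 10 each. Some genes of the lists named below had fewer. Ets1, a transcription factor of lymphoid cells, had 8 in its desert, 5 of them with a peak in every library. Myc had 7 on the side of Gsdmc, where 3 lay over the lncRNA Pvt1. Bcl11b, a factor that maintains ILC2 identity, had 6, and Icos, a costimulatory receptor of ILC2s, had 5. At the strongest of the Icos regions, chr1:61135244-61136655, the covered share was 79.1% and 86.4% in Control, 75.6% and 72.4% in FK866, and 67.3% and 70.8% in FK866 plus succinate. There the Control libraries lay highest and the FK866 plus succinate libraries lowest, without overlap. Averaged over the 5 Icos regions, FK866 plus succinate was instead highest, at 79.9% and 75.8%. Control had 53.8% and 66.4%, and FK866 had 67.2% and 57.5%.

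Lists of genes chosen with earlier results of these data known were compared by whether a desert beside a listed gene held a region. Of all 4744 coding genes beside a gap over 100 kb, 1006 had one (21.2%). Among transcription factors of ILC2s it was 11 of 14 (Gata3, Id2, Ets1, Bcl11b, Maf, Zeb2, Ikzf2, Runx3, Klf4, Rora and Tox), and Bach2, Nfil3 and Runx1 had none. Among immune signalling genes it was 15 of 20, with Tnfaip3 (12 regions on both sides), Dusp4 (9), Dusp6 (6) and Cd83 (5) leading. Among ILC2 receptors only Icos had one of 6, and among ILC2 cytokines Csf2 and Il6 of 4. Of 8 genes on a list of AP-1 and immediate early genes, Myc, Jun and Irf8 had one. Developmental regulators had one in 12 of 36 genes, including Satb1, Sox5 and Sox9, and adhesion and synapse genes in 7 of 39. These shares are a description and were not tested.

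The following regions beside listed genes each had peaks in all 6 libraries. At chr4:55650495-55652304, 118019 bp from Klf4, a factor of cell cycle exit and barrier cells, the fold was 10.9 and 11.9 in Control, 10.3 and 8.10 in FK866, and 11.5 and 8.40 in FK866 plus succinate. At chr9:32939735-32941886, 181914 bp from Ets1, it lay between 7.17 and 8.94. At chr4:95160844-95162482, 108621 bp from the AP-1 subunit gene Jun, it lay between 8.08 and 10.9. At chr1:137898330-137901142, 161716 bp from Ptprc (CD45, the phosphatase of all leukocytes), it lay between 6.39 and 8.67, and at chr1:128831695-128833182, 239395 bp from the chemokine receptor gene Cxcr4, between 7.02 and 10.7. At chr11:113172359-113173674, 71176 bp from Slc39a11 and 384601 bp from Sox9, a factor of cartilage and gut stem cells, it lay between 10.1 and 13.0. At the Ets1 and Ptprc regions all groups overlapped in fold, and at Klf4 Control lay above FK866 while FK866 plus succinate overlapped both. At Sox9 both FK866 plus succinate libraries (13.0 and 11.9) lay above the other 4 (at most 11.2), and so they did at Jun (10.8 and 10.9, beside at most 9.33). At Cxcr4 the Control libraries (8.01 and 7.02) lay below the other 4. At Sox9 the covered share ran the other way, with 85.0% and 85.2% in FK866 plus succinate and at least 95.6% elsewhere.

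Desert regions were compared with other regions to see how remote peaks differ. In deserts 596 of 1217 regions (49.0%) had a peak in all 6 libraries, compared with 45.3% of 5244 intergenic regions between 2 and 50 kb from a gene, 44.4% of 9431 regions inside genes and 84.7% of 13352 regions within 2 kb of a gene end. The median fold of desert peaks was 4.46 to 4.89 per library, that of the nearer intergenic peaks 4.14 to 4.44, that of peaks inside genes 4.01 to 4.29 and that of peaks at gene ends 7.40 to 7.98. Desert peaks were thus higher than intergenic peaks by 0.426 ± 0.124 and higher than peaks inside genes by 0.576 ± 0.149, and differed from gene-end peaks by -2.97 ± 0.173 (SD, n = 6 libraries), each in 6 of 6 libraries. An exact two-sided paired permutation test gave an adjusted p of 0.0402 for each of these over the 9 comparisons of class and measure, from p = 0.0312, the smallest that 6 libraries can give. Fold is tied to the peak's adjusted p, which helped choose the regions. These differences are therefore a description, and the test gives no separate support. Leaving out any 1 library leaves 5, for which this test cannot reach 0.05. Median peak width was 828 to 901 bp in deserts. It differed by 35.8 ± 15.4 bp from that of nearer intergenic peaks, by -634 ± 53.2 bp from gene-end peaks and by -8.75 ± 16.7 bp from peaks inside genes (SD over 6 libraries). Beyond 100 kb the difference to intergenic peaks was 8.92 bp. A limit on width helped choose the regions, so the widths are a description.

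**Figure D3:**
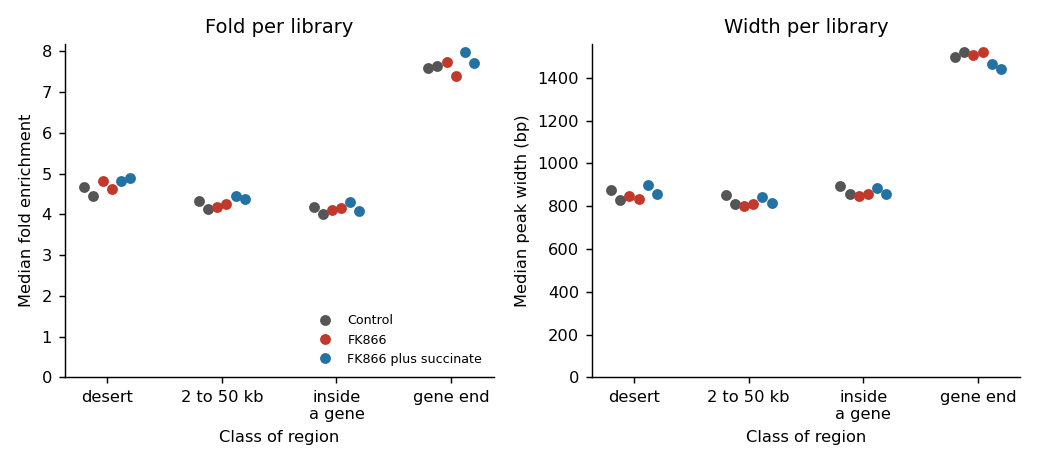
Median fold enrichment (left, ratio to local background) and median width in bp (right) of the peaks in 4 classes of region, with 1 point per library coloured by group. Desert medians (fold 4.46 to 4.89) sit above those of intergenic regions at 2 to 50 kb (4.14 to 4.44) and far below those at gene ends (7.40 to 7.98).

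Regions seen in few libraries were weak and narrow. The median fold was 3.31 and the median width 627 bp for the 224 desert regions in 2 libraries, and 6.10 and 1429 bp for the 596 in all 6. A merged region widens as more libraries add peaks, and weak peaks near the limit pass it in fewer libraries. These values are therefore a description. Of the 224, 49 (21.9%) had both libraries in the same group. With distance, regions became less shared: 50.3% of the 638 regions between 50 and 100 kb had a peak in every library, 50% of the 378 between 100 and 200 kb, 44.9% of the 156 between 200 and 500 kb and 35.6% of the 45 beyond 500 kb. In the 596 regions shared by all libraries, the 6 peak summits fell within 100 bp of each other in 116, and the median range was 245 bp. The median distance between summits was 83.7 bp for pairs of libraries of the same group and 80.5 bp for pairs of different groups.

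Fewer desert regions had a peak in the FK866 plus succinate libraries. A peak was present in 947 and 985 of 1217 regions in Control, 998 and 922 in FK866, and 866 and 890 in FK866 plus succinate, so the last group lay below the 4 other libraries. Presence in at least 2 libraries chose the regions, and this order is a description. Deserts held 3.74% to 3.97% of each library's peaks with an adjusted p under 0.05 (Control 3.89% ± 0.00665, FK866 3.90% ± 0.100, FK866 plus succinate 3.80% ± 0.0780; SD, n = 2). The groups overlapped in that share. When peaks of any strength in the deposited lists were counted, 86.3% to 92.0% of the regions had one in each library. In such bulk samples a lower share of cells with the target at a site and a lower level of the target per cell cannot be told apart.

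Between FK866 and Control, 33 desert regions were gained (a peak in both FK866 libraries and neither Control library) and 37 were lost. These were 2.71% and 3.04% of the desert regions, beside 2.16% and 2.37% of all 29342 regions. Between FK866 plus succinate and FK866, 30 were gained and 79 lost, 2.47% and 6.49%, beside 1.72% and 4.28% of all regions. Between FK866 plus succinate and Control, which shares its libraries with the other comparisons, 37 were gained and 74 lost, 3.04% and 6.08%, beside 1.7% and 4.71%. In most of these regions at least 1 library of the group counted as lacking the peak held a weaker deposited one. A complete absence of deposited peaks in the other group was found for 10 of the 33, 12 of the 37, 13 of the 30, 20 of the 79, 12 of the 37 and 18 of the 74, in the same order. In that order, 19, 14, 16, 19, 16 and 14 of the gained or lost regions had a peak in 2 libraries only. Those passed the rule on 2 libraries through 1 group alone. The FK866 plus succinate libraries had on average the fewest peaks with an adjusted p under 0.05, and with equally long lists 41 regions were gained and 62 lost against FK866. With deposited peaks of any strength the counts were 25 and 32, and leaving out 1 library gave 50 to 78 gained and 115 to 143 lost.

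**Figure D4:**
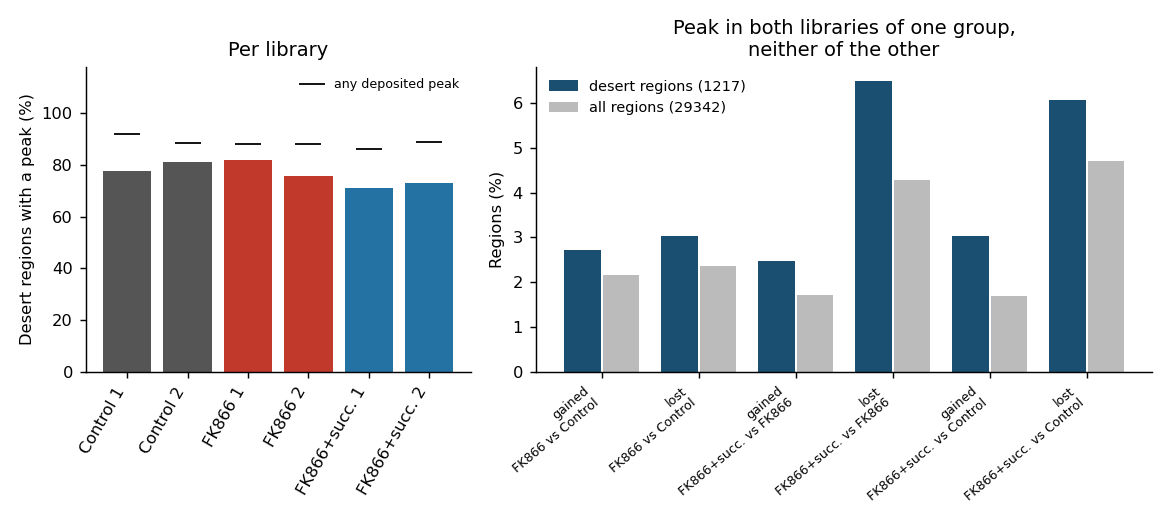
Left, percentage of the 1217 desert regions with a peak of adjusted p under 0.05 in each library (bars) and with any deposited peak (black marks). Right, percentage of desert regions (dark) and of all 29342 regions (grey) with a peak in both libraries of one group and neither of the other; losses in FK866 plus succinate are 6.49% against FK866 and 6.08% against Control.

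limma, a moderated linear model fitted across all 29342 regions, called no desert region in any comparison at an adjusted p under 0.05, for the covered share or for the percentile of peak strength (0.0% of all regions, and 0 of 1217). For the covered share, 82 desert regions had an unadjusted p under 0.05 between FK866 and Control, 6.74% beside 5.37% of all regions. The count was 146 between FK866 plus succinate and FK866, 12.0% beside 11.4%, and 140 between FK866 plus succinate and Control, 11.5% beside 12.0%. For peak strength the counts were 53, 145 and 117, or 4.35%, 11.9% and 9.61%, beside 4.61%, 9.96% and 7.71%. These shares lay near those of all regions. The median over desert regions of each region's difference in covered share was -0.55, -1.59 and -3.87 percentage points in the 3 comparisons. Over all regions it was -0.24, -3.89 and -4.29. After quantile normalization the medians were 0.12, 2.24 and 1.35 points for desert regions and 0.12, -0.07 and 0 for all regions. That scaling gives every library the same distribution and so removes an overall shift. These values therefore place desert regions beside all regions only and give no direction of an overall shift.

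The regions with the smallest limma p showed patterns over the 6 libraries that did not pass adjustment over the whole table. At chr14:104715764-104716074, a region of 311 bp in the lncRNA D130009I18Rik between Obi1 and Rbm26, the covered share was 0.0% in both Control libraries, 88.4% and 90.4% in FK866, and 84.2% and 98.7% in FK866 plus succinate. Neither Control library had any deposited peak there. The fold was 7.07 and 6.16 in FK866 and 7.67 and 6.67 in FK866 plus succinate. The limma difference from Control was 89.4 ± 19.6 points (SE) for FK866 (adjusted p = 0.899) and 91.5 ± 19.6 points for FK866 plus succinate (adjusted p = 0.338). At chr16:76084991-76086301, between Samsn1, an adaptor gene of lymphocytes, and the nuclear corepressor gene Nrip1, the Control libraries were at 0.0% and the others at 96.7% and 85.0% (FK866) and 84.4% and 83.1% (FK866 plus succinate). Here weaker deposited peaks with a fold of 2.81 and 2.55 were present in Control, so presence alone overstates the contrast.

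Regions lower in FK866 plus succinate included some with a smaller covered share and one without a passing peak. At chr7:73617650-73619405, 75903 bp from Chd2, a chromatin remodeller gene, the covered share was 100% and 96.0% in Control, 97.8% and 97.4% in FK866, and 85.2% and 83.3% in FK866 plus succinate. The fold ran the other way, with 8.40 and 8.37 in FK866 plus succinate and 7.02 to 8.18 in the other 4 libraries. The limma difference was -13.3 ± 2.95 points from FK866 (adjusted p = 0.365) and -13.7 ± 2.95 points from Control (adjusted p = 0.338). The Dubr region differed by -18.2 ± 4.06 points from FK866 (limma, adjusted p = 0.365) and the Morrbid region by -21.9 ± 4.79 points from Control (limma, adjusted p = 0.338). At chr12:39974240-39975428, 57862 bp from the small GTPase gene Arl4a, the peak was present in both Control (94.4% and 80.1%) and both FK866 libraries (91.8% and 88.6%) and in neither FK866 plus succinate library, although one of these had a weaker deposited peak there, with a fold of 2.92. That difference from FK866 was -90.2 ± 20.1 points (limma, adjusted p = 0.365).

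Some regions had no deposited peak at all in the other group. The coding genes given for them flank the desert, and a link between region and gene was not tested. A pair of regions had a peak in both FK866 libraries and in no other. The first, chr8:56943079-56943433, was covered to 90.4% and 89.9%. It lay 349139 bp from Fbxo8 and 377549 bp from the developmental regulator Hand2. The second, chr16:25519046-25519985, was covered to 97.7% and 68.8%. It lay 95457 bp from Tprg and 163777 bp from the p63 gene Trp63. The region chr6:127359432-127359986 lay 86843 bp from Parp11 and 207243 bp from the cyclin D2 gene Ccnd2. There the peak was absent in both FK866 libraries and covered 53.7% and 54.4% in Control and 54.4% and 100% in FK866 plus succinate. At chr9:93384509-93384765, 776080 bp from Plod2, the peak was absent from the Control and FK866 libraries and covered 100% in both FK866 plus succinate libraries. The chr8, chr16 and chr9 regions had a peak in 2 libraries only. They entered the set through the group that has the peak, so their contrast with the other libraries follows from the selection. The region chr6:51099672-51100626, in the lncRNA Gm32190, lay 122330 bp from Gm38821 and 445226 bp from the neuropeptide gene Npvf. There the peak covered 100% and 32.4% in Control, 64.8% and 67.4% in FK866, and nothing in FK866 plus succinate. At chr12:54568318-54569572, in the Egln3 desert and 75801 bp from Sptssa, it covered 81.0% and 85.0%, 100% and 55.5%, and nothing in FK866 plus succinate.

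Within deserts, the covered share averaged over a desert's regions differed between deserts in the order of the groups. In the Id2 desert it was 64.3% and 67.4% in Control, 51.1% and 58.7% in FK866, and 29.5% and 39.8% in FK866 plus succinate, descending in that order without overlap. In 16 of its 17 regions the mean with FK866 plus succinate lay below that of Control, as it did in 58.5% of all desert regions and 65.7% of all regions. In the Hes1 desert it was 48.1% and 73.6%, 69.0% and 76.3%, and 34.0% and 35.7%, with FK866 plus succinate lowest. In the Gata3 desert FK866 was highest, with 61.8% and 59.3%, beside 48.5% and 51.2% in Control and 44.0% and 47.5% in FK866 plus succinate. In the Bcl2l11 desert the FK866 plus succinate libraries lay far apart, at 63.4% and 38.9%, on both sides of the 2 other groups. In the Tnfaip3 desert FK866 plus succinate had 64% and 63.6%, FK866 63.8% and 54.5%, and Control 47.3% and 53.7%. There FK866 plus succinate lay above Control, unlike beside Id2, and overlapped FK866. These deserts were chosen for their number of regions, and the differences between groups in their averages were not tested.

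**Figure D5:**
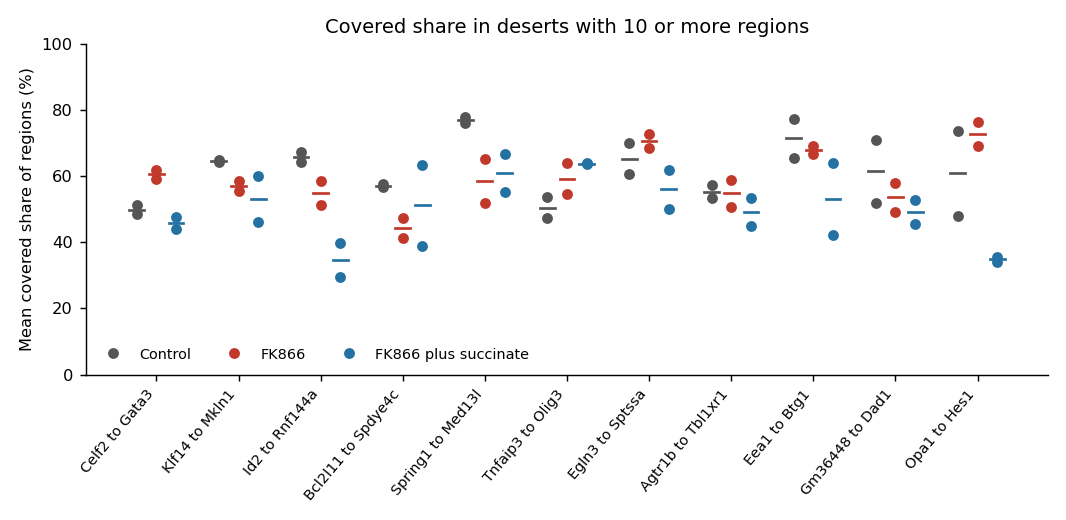
Covered share averaged over the regions of each of the 11 deserts with 10 or more regions (y axis, percent of region bases under peaks of adjusted p under 0.05), with 1 point per library and a bar at the group mean. FK866 plus succinate libraries are lowest in the Id2 desert (29.5% and 39.8%) and the Hes1 desert (34.0% and 35.7%); in the Tnfaip3 desert they are the highest on average.

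The base-pair Jaccard index over desert regions was 0.644 for the Control pair, 0.648 for FK866 and 0.613 for FK866 plus succinate. The mean within groups was 0.635 and that between groups 0.614. Peak presence chose the regions, so these values are a description. Of the 224 regions in only 2 libraries, the most frequent pairing was Control 2 with FK866 1 (24), above the pairs of the same group, which had 14, 19 and 16.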

How the data were processed

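CUT&Tag peak lists of 6 libraries in 3 groups of 2 were used; groups came from the labels. The submitters' processing notes name cutadapt 1.9, Bowtie2 2.5.0 and mm10. No source names the peak caller; each list's deposited peak names point to 1 Bowtie2 alignment. The authors' deposited columns hold a score, a fold enrichment (a ratio to local background), −log10 p and −log10 adjusted p (q-value), each relative to its own library, so values depend on depth, which is unknown, and folds are given per library without a test between groups. The peak strength is a percentile of −log10 p within a library's deposited list.

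Peaks on chromosomes 1 to 19, X and Y with −log10 adjusted p above 1.301 were merged where they overlapped. Distances are to RefSeq spans of GRCm38.p6 protein-coding genes, whose chromosome coordinates are those of mm10; strand was not used. Python 3.11.15, pandas 2.3.3 and numpy 2.4.6 made the regions, and limma 3.58.1 in R 4.3.3 (lmFit, eBayes with trend, all 6 libraries in 1 fit, Benjamini-Hochberg at 0.05) tested them; the fit was tested on simulated data. With 2 libraries a group, changes of small and of large size could be missed. Between FK866 and Control, the covered share differed by 89.4 points at chr14:104715764-104716074 and by 90.8 points at chr16:76084991-76086301. limma gave an adjusted p of 0.899 for each. The regions, gene lists and named regions were chosen with earlier results of these data known. Named regions were the strongest, the farthest, the strongest lost or gained with no other deposited peak, those with the smallest limma p, the strongest beside each listed gene, those at the limits, the fullest deserts and the strongest over noncoding genes; other regions named inside the fullest deserts, and the noncoding starts printed, were chosen after their values were seen. Alternatives were a threshold of 2 on −log10 adjusted p, all deposited peaks, lists of equal length, a distance of 100 kb, 50% overlap, at least 3 libraries, quantile normalization, a replicate block and leaving out each library. Some of the cell type marker counts are not reported here.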

Additional observations from a re-analysis of the deposited data

How the results depend on the processing

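limma called 0 desert regions in all 3 comparisons and for both measures under every alternative run (quantile normalization, at least 3 libraries, all deposited peaks and leaving out each library; equally long lists were run for peak strength only). The replicate numbers are shared between groups, but deviations of same-numbered libraries correlated by between -0.00445 and 0.00796, so the numbers pair nothing; with the replicate number as a block limma also called 0 regions. Depth is unknown and the lists are loose, so a missing peak is not an absent target.

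Counts of gained and lost regions moved most. When all deposited peaks counted, FK866 against Control had 17 gained and 19 lost, FK866 plus succinate had 32 lost against FK866, and 21 gained and 34 lost against Control. Beyond 100 kb the gained and lost counts were 16 and 17, 8 and 46, and 12 and 42 in the order FK866 against Control, FK866 plus succinate against FK866, FK866 plus succinate against Control. With 50% of the region covered, 50 regions were gained in FK866 plus succinate against FK866. Leaving out 1 library, so that 1 library stands for its group, gave 58 to 84 gained and 60 to 100 lost, 50 to 78 gained and 115 to 143 lost, and 55 to 75 gained and 113 to 136 lost, in that order. Where both counts are given, losses outnumbered gains in FK866 plus succinate. They also did so over all regions at the main setting. There, 1257 were lost and 504 gained against FK866, and 1383 lost and 498 gained against Control. At the main setting the excess was thus not particular to deserts. Shares over all regions were not counted under the alternatives, so the same cannot be said there.

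Between classes of region, the width difference to nearer intergenic peaks was 8.92 bp beyond 100 kb, and that to peaks inside genes became -35.6 bp beyond 100 kb and -38.6 bp at the threshold of 2. Widths are a description. The percentile difference to intergenic peaks, 0.809 points, reversed to -0.0582 beyond 100 kb and -0.0853 at the threshold of 2. That to peaks inside genes (1.31) fell to 0.439 and 0.255. The percentile is tied to the adjusted p that helped choose the regions, so percentiles are a description too. For the fold, which is also tied to that adjusted p, the test cannot be passed with 1 library left out. Fold differences then ranged from 0.383 to 0.448 (intergenic), 0.531 to 0.602 (inside) and -3.00 to -2.92 (gene end). Width differences, as a description, ranged from 31.7 to 39.1 bp (intergenic) and -648 to -623 bp (gene end). Percentile differences, also a description, ranged from 1.22 to 1.43 (inside) and -22.5 to -20.7 points (gene end). Percentiles over equally long lists, the noncoding-start comparison and dropping the 20 regions near antigen receptor segments were chosen after seeing the data. The cause of these changes was not tested.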

Other observations

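Of the 1217 regions, 5 had a mean fold over 20, beside 6 of 5244 intergenic regions nearer to genes, 3 of 9431 inside genes and 2 of 13352 at gene ends. Of these, 3 lay beyond the last coding gene of their chromosome: chr14:124801559-124802243 (fold 28.7 to 30.1 over the 6 libraries), chr19:61331278-61331564 (35.7 to 37.1), which lies 102816 bp from the cytokine receptor gene Csf2ra, and chrX:170758241-170758513 (35.1 to 36.2). The others were chr3:5860334-5860819 (25.9 to 27.5) and chr2:98666535-98667310 (22.3 to 23.3), 1034862 bp from Lrrc4c. Their values varied little between libraries, and whether reads map uniquely there was not tested. At chr16:98107511-98107767, again beyond the last coding gene, 1 FK866 library had a fold of 34.0 and both libraries with added succinate 35.3 and 34.5, with no deposited peak in the other 3.

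Antigen receptor loci made up part of the deserts. ILC2s lack antigen receptors on their surface. The 10 regions of the gap before Dad1, which spans the T cell receptor alpha and delta locus, included 5 with a peak in every library. Of the 20 regions within 50 kb of a segment, 9 lay over one, and a peak was present in 12 and 16 of them in Control, 17 and 12 in FK866, and 13 and 15 in FK866 plus succinate, with all groups overlapping. The T cell markers given above had a peak at a gene end in 4 to 6 of 8 cases, and their part in these values was not tested.

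Some of the remotest regions were shared by all libraries. At chr1:101901511-101903215, 1410911 bp from Cntnap5b, the fold was 9.04 and 10.5 in Control, 10 and 10.6 in FK866, and 8.53 and 9.74 in FK866 plus succinate. At chr5:59573214-59574160, 1439977 bp from the protocadherin gene Pcdh7, it lay between 5.39 and 11.3. The region farthest of all, at chr5:59955860-59956132, had a peak in 1 library of each group.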
